A study of Mus musculus with 531 samples.

Results

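Nodal signalling was followed through 8 of its genes in single cells of mouse embryos between implantation and gastrulation. The genes were the ligands Nodal and Gdf3, the coreceptor Tdgf1 (Cripto), the convertase Furin, the transcription factor Foxh1 and the secreted antagonists Lefty1, Lefty2 and Cer1. They were chosen by symbol and role, with no threshold on a measured value, and all 8 were found among the 22084 genes of the count table. The embryos were of the strain C57Bl/6Babr, with no treatment or introduced allele named in the labels, and the 3 groups were developmental stages: E4.5 with 5 embryos, E5.5 with 1 embryo and E6.5 with 2 embryos. The study's text gives fewer embryos at E4.5 than the titles number, and the titles were followed, so the count of independent E4.5 embryos is uncertain. RNA was read by Smart-seq2 from 264 cells whose genomes went to bisulfite libraries, which were not analysed here. At E4.5 the trophectoderm had been removed by immunosurgery, at E5.5 the visceral endoderm and extraembryonic ectoderm had been pulled away from the epiblast, and at E6.5 extraembryonic tissue had been dissected off by hand, so the cells collected do not stand for the make-up of the embryo.

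Nodal is a ligand of the transforming growth factor beta family that is made as a precursor, cut by convertases such as Furin, and recognised by activin receptors together with the coreceptor Tdgf1. The receptors activate Smad2 and Smad3, which bind DNA with partners such as Foxh1 and switch on Nodal itself as well as its inhibitors Lefty1 and Lefty2. In the mouse embryo the pathway keeps the epiblast pluripotent, sets up the anterior visceral endoderm, where Lefty1 and Cer1 hold it in check, and later induces the primitive streak.

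In the GRCm38 build, Nodal lies on chromosome 10 from 61417972 to 61425338, Gdf3 on chromosome 6 from 122605403 to 122610087, Tdgf1 on chromosome 9 from 110939603 to 110946158 and Furin on chromosome 7 from 80388585 to 80405436. Foxh1 lies on chromosome 15 from 76668225 to 76669948 and Cer1 on chromosome 4 from 82881751 to 82885148. Lefty1 (180935022 to 180938400) and Lefty2 (180893108 to 180899103) are close paralogs next to each other on chromosome 1, and reads that fit both could have been split between them or dropped by the counting, so their values carry that uncertainty. RefSeq promoters (build GRCm38.p6) were held for 4 of the 8 genes, namely Nodal, Tdgf1, Furin and Cer1. The 250 bases upstream of the start are shown for Tdgf1, the gene with the largest lineage difference here, and for Cer1, the gene without a read at E4.5. Each runs 5′ to 3′ on the strand of its gene, with matches to AATNNACA (a form of the Foxh1 core), CAGAC (the Smad box) or TATAAA on either strand in capitals.
Tdgf1, chr9:110946159-110946408, minus strand: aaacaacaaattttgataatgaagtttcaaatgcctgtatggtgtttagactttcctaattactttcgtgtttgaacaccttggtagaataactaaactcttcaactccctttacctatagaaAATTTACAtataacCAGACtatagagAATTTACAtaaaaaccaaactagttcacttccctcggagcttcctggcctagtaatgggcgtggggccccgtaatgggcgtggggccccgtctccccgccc
Cer1, chr4:82885152-82885401, minus strand: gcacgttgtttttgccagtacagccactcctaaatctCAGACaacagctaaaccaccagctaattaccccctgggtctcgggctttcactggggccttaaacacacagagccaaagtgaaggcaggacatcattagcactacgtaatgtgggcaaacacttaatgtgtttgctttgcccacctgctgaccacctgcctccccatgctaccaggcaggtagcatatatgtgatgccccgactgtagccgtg
The Tdgf1 window held 2 matches to the Foxh1 core with 1 Smad box between them, and the Cer1 window held 1 Smad box. Of 32851 promoter windows of this length, 10.9% held a match to the Foxh1 core, 42.2% to the Smad box and 12.4% to TATAAA. A match describes letters only and was not tested for binding, and the matches shown did not overlap each other.

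After a filter at 50000 reads and 2000 genes, 217 cells were kept, 75 from the E4.5 embryos, 59 from the E5.5 embryo and 83 from the E6.5 embryos. Kept cells held 306995 to 2632015 counted reads at E4.5, 600404 to 3772599 at E5.5 and 112008 to 8904445 at E6.5. Clustering within each stage on genes other than the 8 members and the rest of their pathway gave 24 epiblast-like and 40 endoderm-like cells at E4.5, 37 and 7 at E5.5, and 23 and 16 at E6.5, where 22 cells of embryo 2 were mesoderm-like. The other 11, 15 and 22 cells stayed unnamed. Below, the level of a gene is its mean log2(CPM + 1) over the cells of a lineage in 1 embryo, CPM being the reads of the gene per 1000000 counted reads of the cell.

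The marker lists that named the clusters are described here for the named cells, which is no independent check of the names. At E4.5 the epiblast list had 10 of 12 genes read in at least 50% of epiblast-like cells and 4 of 12 in endoderm-like cells, and the endoderm list had 4 of 14 and 12 of 14. At E5.5 epiblast-like cells carried 1 of 14 endoderm markers in at least 50% of cells, with 9 of 14 at 0 in every cell and a summed level of 67.7 to 1311 CPM. At E6.5 the separation was weaker: epiblast-like cells carried 12 of 14 endoderm markers in at least 50% of cells, none of them at 0 throughout, at 441 to 8822 CPM in sum, mesoderm-like cells 13 of 14 at 957 to 8426 CPM, and endoderm-like cells 14 of 14 at 6850 to 31397 CPM. E6.5 endoderm-like cells also carried 9 of 12 epiblast markers at 150 to 1966 CPM, where the E5.5 endoderm-like cells carried 4 of 12 at 30.4 to 602 CPM. The trophoblast list had a median summed level of 2.55 CPM in epiblast-like cells at E4.5, 170 CPM at E5.5 and 603 CPM at E6.5. Mesoderm markers had a median sum of 850 CPM in mesoderm-like cells against 267 CPM in E6.5 epiblast-like cells. What part these shared transcripts have in the E6.5 levels below was not tested. Reads of 4 Y-linked genes were found in all 24 kept cells of E4.5 embryo 4, in 8 of 18 cells of embryo 5 and in at most 3 cells of any other embryo, so the cells labelled embryo 5 were not alike, and values without that embryo are given where they bear on a result.

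**Figure D1:**
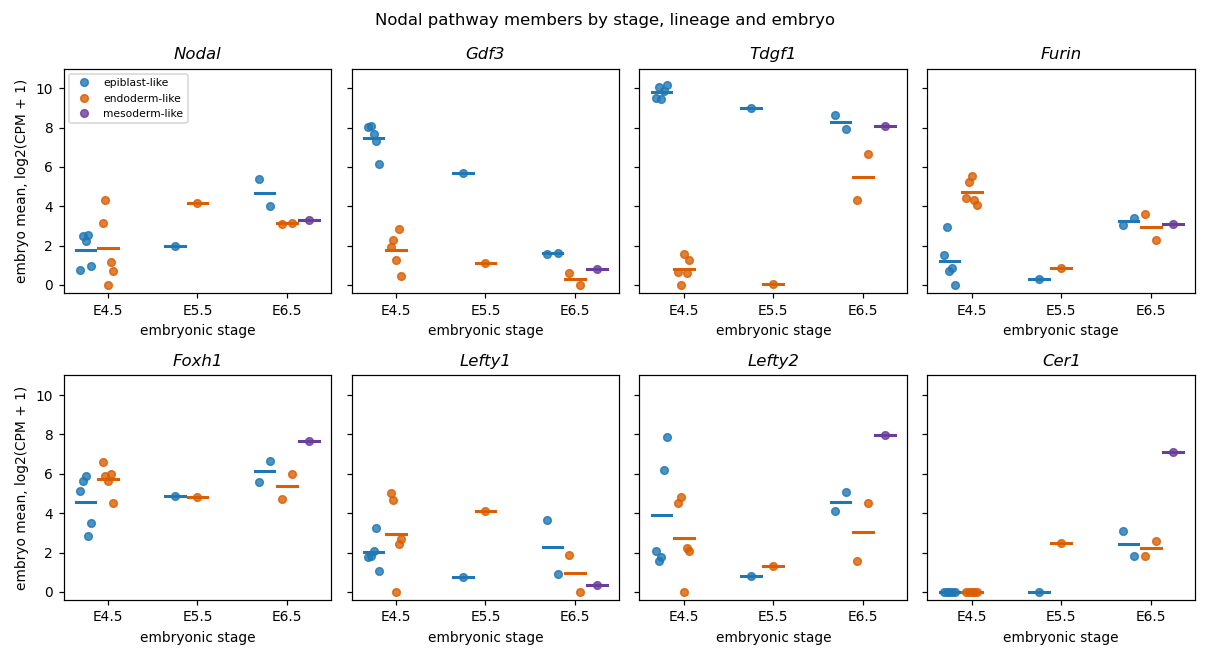
Level of each of the 8 genes by stage (x axis), with the embryo mean of log2(CPM + 1) on the y axis. Each point is the cells of 1 lineage in 1 embryo (at least 3 cells) and each bar the mean over embryos. Tdgf1 and Gdf3 separated the lineages at E4.5, and Cer1 was at 0 in all 5 E4.5 embryos.

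The first question was which lineage of the E4.5 embryo, epiblast or primitive endoderm, held which component. Tdgf1 and Gdf3 sat in the epiblast, Furin in the endoderm, Foxh1 in both, Cer1 in neither, and Nodal and the Lefty genes were patchy in both. Because lineages were named from the same cells, these are descriptions without a test.

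Of the ligands, Gdf3, a family member related to Nodal, had levels of 8.05, 8.09, 7.65, 7.30 and 6.13 in the epiblast-like cells of embryos 1 to 5. In their endoderm-like cells the levels were 1.93, 2.29, 1.26, 2.85 and 0.44. The groups did not overlap, and the difference was 5.69 ± 0.75 (SD over 5 embryos, log2). Every one of the 24 epiblast-like cells held a Gdf3 read, against 18 of 40 endoderm-like cells (45%, exact 95% interval 29.3 to 61.5%, for counting error only).

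Nodal itself showed no such division. Its epiblast levels were 0.75, 2.49, 2.21, 2.55 and 0.97, and its endoderm levels 3.17, 4.33, 0, 1.14 and 0.73. The lineages overlapped, with the epiblast higher in 3 of 5 embryos (difference -0.08 ± 2.01). Nodal was read in 11 of 24 epiblast-like cells (45.8%, interval 25.6 to 67.2%) and in 14 of 40 endoderm-like cells (35%, 20.6 to 51.7%).

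Tdgf1, the anchored coreceptor, gave the widest separation of the 8. Epiblast-like cells had levels of 9.52, 10.08, 9.46, 9.85 and 10.16 in embryos 1 to 5, and endoderm-like cells 0.64, 0, 1.60, 0.60 and 1.26. The difference was 8.99 ± 0.80 log2 (SD, n = 5). Every one of the 24 epiblast-like cells held reads, and the SD of its epiblast level over embryos, 0.32, was the smallest of the 7 members read at E4.5.

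Furin, the convertase that can cut the Nodal precursor, ran the opposite way. Endoderm-like cells had levels of 4.41, 5.26, 5.52, 4.30 and 4.05, while epiblast-like cells had 1.52, 2.95, 0.71, 0.87 and 0. All 5 embryos were higher in the endoderm (difference -3.50 ± 0.98, epiblast minus endoderm). It was read in 38 of 40 endoderm-like and in 8 of 24 epiblast-like cells.

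Foxh1, the Smad partner, was present in both lineages, in 20 of 24 epiblast-like and 38 of 40 endoderm-like cells. The epiblast levels were 5.11, 5.64, 5.87, 2.84 and 3.48, with the lowest values in embryos 4 and 5, and the endoderm levels 6.58, 5.91, 5.62, 5.98 and 4.54. These ranges overlapped (difference -1.14 ± 1.31).

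Thus 3 of the 7 members that reached 1 CPM in either lineage had non-overlapping embryo means, 2 higher and 1 lower in the epiblast. Across the 12608 genes past the same filter, 5.10% were higher in this sense and 8.31% lower. Leaving out an embryo or dividing the embryos by title prefix (P1 for embryos 1 and 2, P2 for embryos 3 to 5) cannot end such a separation, so neither bears on its stability.

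**Figure D2:**
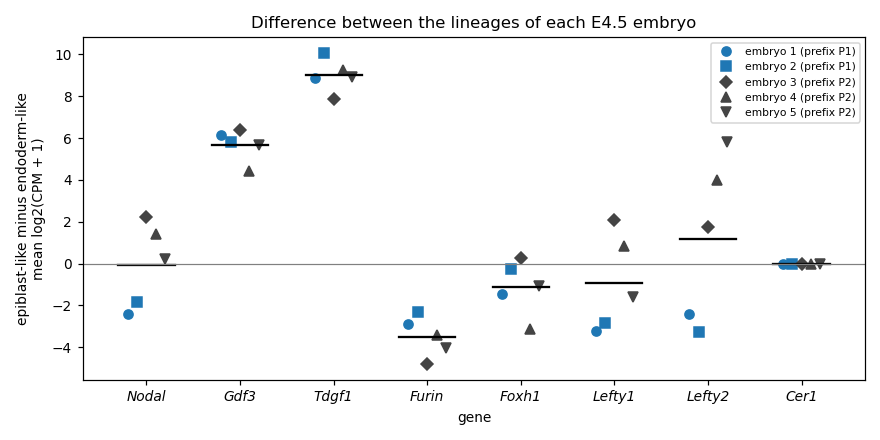
Epiblast-like minus endoderm-like level, log2(CPM + 1), for each gene (x axis) in each of the 5 E4.5 embryos. Points are embryos, coloured by the prefix in their titles, and bars are means. Tdgf1 and Gdf3 were above 0 and Furin below 0 in 5 of 5 embryos, whereas Nodal, Lefty1 and Lefty2 were below 0 in both P1 embryos.

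The antagonists Lefty1 and Lefty2 varied widely between embryos of 1 lineage. Lefty1 levels in the endoderm-like cells of embryos 1 to 5 were 5.02, 4.67, 0, 2.42 and 2.69, and Lefty2 levels were 4.51, 4.84, 0, 2.22 and 2.08. Both were high in the P1 embryos, absent from the 5 endoderm-like cells of embryo 3 and intermediate in embryos 4 and 5. Nodal in these cells was also highest in the P1 embryos and at 0 in embryo 3. P1 and P2 libraries also differed in depth, with median reads per kept cell of 398206 and 471570 in embryos 1 and 2 against 787502 to 1352840 in embryos 3 to 5, and embryo, prefix and depth cannot be told apart here. In the epiblast, Lefty2 levels were 2.09, 1.59, 1.75, 6.21 and 7.89, so that embryos 4 and 5 stood above the others, and Lefty1 levels were 1.80, 1.84, 2.10, 3.26 and 1.07.

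Within the E4.5 endoderm Nodal, Lefty1 and Lefty2 were often read in the same cells. Of 14 endoderm-like cells with a Nodal read, 13 also held Lefty1 and 11 held Lefty2, and 21 of the 40 cells held neither Nodal nor Lefty1. The cells with all 3 transcripts numbered 4 of 9 in embryo 1, 3 of 4 in embryo 2, 0 of 5 in embryo 3, 2 of 12 in embryo 4 and 2 of 10 in embryo 5. Over the 40 cells, Spearman's rho of Nodal with Lefty1 was 0.84 (Pearson's r 0.84) and of Lefty1 with Lefty2 0.66 (r 0.62), given as a description since cells of 1 embryo share their source. Levels were high where a gene was read: the median was 7.50 for Lefty1 and 6.95 for Lefty2, on the log2(CPM + 1) scale. Of the 11 epiblast-like cells with a Nodal read 4 held Lefty1, and all 3 transcripts were read in 0 of 5, 0 of 4, 1 of 5, 3 of 6 and 0 of 4 cells of embryos 1 to 5. In embryos 3 and 4 that share was above the endoderm-like one, and the difference between the lineages was not tested.

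**Figure D3:**
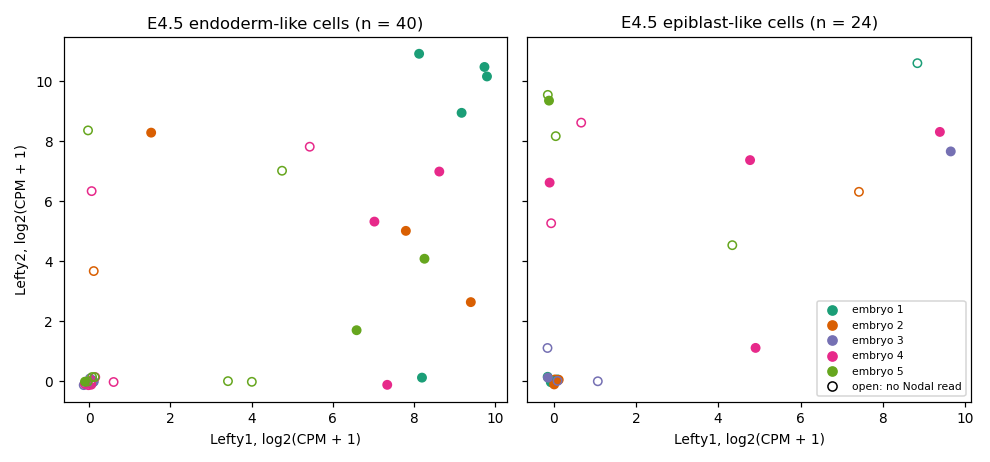
Lefty2 (y axis) against Lefty1 (x axis), both log2(CPM + 1), in each E4.5 cell, coloured by embryo, with filled points for cells with a Nodal read and a small jitter of the points. In endoderm-like cells 13 of 14 Nodal-positive cells lay away from 0 on the Lefty1 axis, while several epiblast-like cells of embryos 4 and 5 held Lefty2 alone.

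A few epiblast-like cells bore marks of both lineages. In 5 of 24 the endoderm genes Amn, Cubn and Dab2 each exceeded 100 CPM. This rule used 3 of the 14 endoderm markers and was not applied to endoderm-like cells. The pluripotency factor Pou5f1 had a lowest value of 9.59 in these 5 cells, but it was also read in all 40 endoderm-like cells (median 9.16). Of these 5, 4 held Lefty1 reads (median 8.98) and 5 held Lefty2 reads (median 8.25), compared with 5 and 9 of the other 19 (medians 0). The highest Lefty1 value among the other cells was 7.35. Without the 5 cells the epiblast levels of Lefty1 in embryos 1 to 5 were 0, 1.84, 0.24, 2.06 and 0, and those of Lefty2 were 0, 1.59, 0.29, 5.79 and 9.40, so Lefty2 remained highest in embryos 4 and 5, the last resting on 2 cells. Doublets were not called, and the origin of these cells was not tested.

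Cer1, a secreted binder of Nodal, bone morphogenetic protein and Wnt, was not detected at E4.5. It had 0 reads in 24 epiblast-like cells and in 40 endoderm-like cells, which allows a share of cells with a read of up to 12.5% and 7.50% (3 cells of the total). This covers counting error only and sets no limit on the share of cells that express the gene.

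Per kilobase of exon, which lets genes be ranked, the epiblast of E4.5 held most Tdgf1 (371 ± 78.7 CPM per kb, SD, n = 5 embryos), then Gdf3 (99.3 ± 25.1), Lefty2 (71 ± 64.5), Lefty1 (46.1 ± 32.7), Foxh1 (39.4 ± 17.2), Nodal (6.91 ± 6.42) and Furin (0.55 ± 0.54). The values of Gdf3, Lefty2, Lefty1 and Foxh1 lay within each other's spread in sequence, and Tdgf1 stood clear of all. Without the 5 cells with marks of both lineages, Lefty1 was at 5.90 ± 9.98 CPM per kb, below Foxh1 at 44.4 ± 20.2, while Lefty2 was at 64.3 ± 112. With embryo 5 left out as well, Lefty2 was at 15.2 ± 25.5 and Foxh1 at 47.7 ± 21.6 (n = 4).

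The rest of the pathway, 31 genes for receptors, other ligands, convertases, Smads, restraints and targets, was read in the same way. Of the 25 past 1 CPM in either E4.5 lineage, 3 were higher and 5 lower in the epiblast without overlap, beside the 5.10% and 8.31% of all genes given above. The largest differences were those of Otx2, a transcription factor of epiblast and anterior tissue (5.38 ± 0.43 log2), Foxa2, an endoderm factor and Nodal target that is also on the list that named the lineages (-3.64 ± 1.03), Tgif1, a repressor of Smad-driven transcription (3.44 ± 1.12), and Pmepa1, which keeps Smads from the receptor (-3.13 ± 0.76). Gdf1, Inhba, Inhbb and Acvr1c were at 0 in all embryo means of both lineages.

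At E5.5, from 1 embryo, Tdgf1 was still the leading member in the epiblast, with reads in 37 of 37 cells and a level of 9.01. Gdf3 had a level of 5.70 with reads in 33 of 37 cells, Foxh1 4.85 with 32 of 37, and Nodal 1.97 with 14 of 37 (37.8%, interval 22.5 to 55.2%). Lefty1 (0.74, 7 of 37 cells), Lefty2 (0.80, 5 of 37) and Furin (0.29, 5 of 37) were read in few cells. Cer1 had no read in the 37 cells, which allows a share of cells with a read of up to 8.11% on the same basis.

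The 7 E5.5 endoderm-like cells carried the antagonists in a subset. This group depends on the clustering, as Leiden clusters named none of the E5.5 cells endoderm-like and the stricter cell filter left 4. Lefty1 was read in 3 cells, at 10.28, 10.97 and 7.44 log2(CPM + 1), and Cer1 was read in the same 3, at 5.94, 6.93 and 4.39. The other 4 cells had neither. Each of the 3 held reads of 5 or 6 of the 6 anterior visceral endoderm markers (Hhex, Dkk1, Otx2, Lhx1, Gsc and Sfrp5), but the 4 others held 3 to 5, so that list did not divide the 7 cells. Nodal was read in 4 of the 7, at 8.89, 5.67, 7.18 and 7.38, and only 1 of these also held Lefty1. Tdgf1 was close to absent, with reads in 1 of the 7, at 0.38, where 14 of 40 endoderm-like cells at E4.5 held reads, at up to 5.73. The 3 cells with Lefty1 at 10.28, 10.97 and 7.44 held Lefty2 at 1.11, 8.06 and 0. How reads that fit both paralogs were counted was not tested.

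At E6.5 Nodal was read in all 23 epiblast-like cells, at levels of 5.36 in embryo 1 and 4.02 in embryo 2. Thinned to 50000 reads per cell, 60.9% of them held a Nodal read, against 29.2% at E4.5 and 29.7% at E5.5. Thinning does not equalise genes per cell, whose medians in epiblast-like cells were 9310, 6954 and 5915 at these stages. The part of this in the shares was not tested. Tdgf1 levels were 8.62 and 7.93, Foxh1 5.61 and 6.65, Furin 3.05 and 3.42, and Gdf3 1.57 and 1.64. Lefty2 reached 4.10 and 5.08, Lefty1 3.66 and 0.90, and Cer1 3.07 and 1.80, so that Lefty1 and Cer1 were higher in embryo 1 and Lefty2 in embryo 2. Endoderm-like cells, with 13 cells in embryo 1 and 3 in embryo 2, had Nodal at 3.08 and 3.17, Tdgf1 at 4.34 and 6.64, Furin at 3.60 and 2.28 and Cer1 at 1.83 and 2.59. These cells hold the shared epiblast and endoderm transcripts described above.

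Mesoderm-like cells, marked by the streak factors T and Mesp1 with median levels of 6.80 and 8.45, came from embryo 2 alone. All 22 held Cer1 (7.10 on average, range 4.74 to 9.29), Lefty2 (7.96, 1.23 to 10.25), Foxh1 (7.66, 6.54 to 8.70) and Tdgf1 (8.10, 6.25 to 9.06). In the 12 epiblast-like cells of the same embryo Cer1 averaged 1.80, Lefty2 5.08 and Foxh1 6.65, and 13, 17 and 10 of the 22 mesoderm-like cells lay above the highest of those 12. Lefty1 behaved otherwise, with reads in 2 of 22 mesoderm-like cells (9.09%, interval 1.12 to 29.2%) and 3 of 12 epiblast-like cells. Nodal was 3.28 in mesoderm-like and 4.02 in epiblast-like cells. With 1 embryo there is no replicate of these differences.

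**Figure D4:**
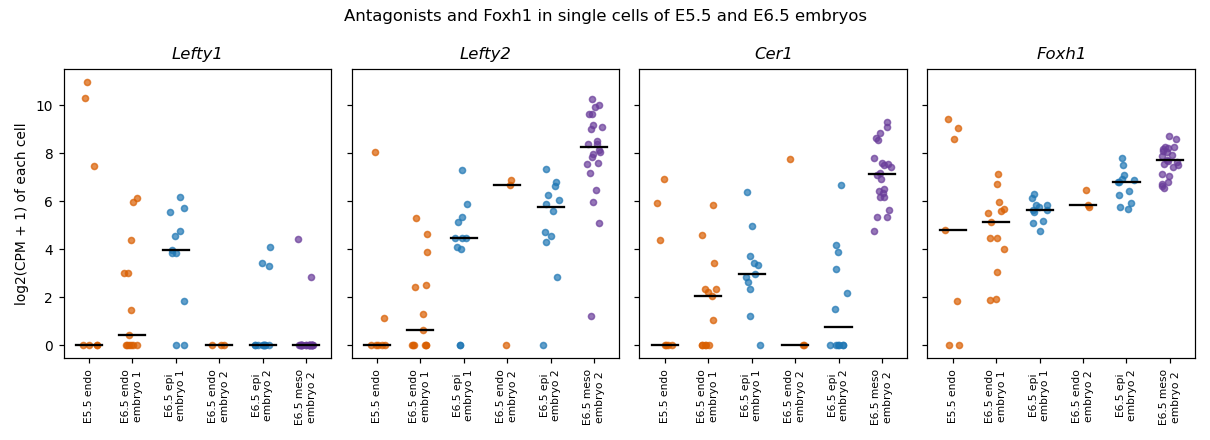
Lefty1, Lefty2, Cer1 and Foxh1 in each E5.5 and E6.5 cell, as log2(CPM + 1) on the y axis, by lineage and embryo on the x axis, with black bars at medians. Cer1 was read in 22 of 22 mesoderm-like cells and Lefty1 in 2 of 22, and the 3 E5.5 endoderm-like cells with Cer1 were those with Lefty1.

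The second question was which members changed with stage inside a lineage. Counts were summed over the cells of each embryo and tested across all genes with edgeR's quasi-likelihood test and Benjamini-Hochberg adjustment at 0.05. The E5.5 stage has 1 embryo, whose spread is taken to be that of the other stages, and each stage has title prefixes of its own, so stage and prefix cannot be told apart. All 8 members passed the filter on low counts. Cer1, with 0 reads at E4.5, passed it through later stages alone, so its tests against E4.5 compare with an empty group.

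In the epiblast from E4.5 to E6.5, 2 of 8 members were lower and none higher. Among 13412 genes tested, 1.68% were lower and 0.514% higher at E6.5. The median log2 fold change was -0.55 over the members and 0.08 over all genes. Gdf3 fell most clearly: its summed levels were 331, 276, 209, 216 and 151 CPM in the E4.5 embryos, 121 CPM at E5.5, and 12.2 and 7.05 CPM at E6.5. Every E6.5 embryo was below every earlier one, and the log2 fold change was -4.80 ± 0.51 (SE, adjusted p = 0.00109). Tdgf1 fell less, from 753, 1248, 742, 1142 and 1113 CPM to 507 and 299 CPM (log2 fold change -1.51 ± 0.34, adjusted p = 0.0490), with no overlap between the stages. The Tdgf1 call was lost when any embryo except E6.5 embryo 1 was left out (adjusted p from 0.0503 without E4.5 embryo 1 to 0.449 without E6.5 embryo 2).

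The other members did not pass in this contrast. Nodal had 1.27, 40.9, 19.7, 10.7 and 3.23 CPM at E4.5 and 53 and 24.9 CPM at E6.5, ranges that overlapped (log2 fold change 1.20 ± 1.08, adjusted p = 0.634). Foxh1 (0.41 ± 0.61), Furin (1.16 ± 1.62), Lefty1 (-2.61 ± 1.26) and Lefty2 (-2.18 ± 1.06) had adjusted p from 0.290 to 0.813. With each embryo left out, the log2 fold change ran from 0.46 to 1.98 for Nodal and from 0.83 to 1.82 for Furin. It ran from -4.92 to -1.76 for Lefty1 and from -2.57 to -1.64 for Lefty2. Cer1 went from 0 reads in all 5 E4.5 embryos to 13 and 11.3 CPM, at least 86.4-fold and 75.1-fold higher than 3 reads over the E4.5 group would be, yet did not pass (adjusted p = 0.0985).

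Between E4.5 and E5.5 no member passed in the epiblast by edgeR. One, Lefty2, was at an unadjusted p under 0.05 (log2 fold change -3.67 ± 1.61, adjusted p = 0.426), and DESeq2 and limma also called 0. Only 0.0447% of genes were higher and 0.209% lower at E5.5. Between E5.5 and E6.5, with the single E5.5 embryo assumed to vary like the others, Gdf3 alone passed (-3.81 ± 0.55, adjusted p = 0.0253), where 0.127% of genes were lower and 0.0224% higher. That call was lost without E4.5 embryo 1 (adjusted p = 0.0526), 2 (0.0526) or 3 (0.0742) or E6.5 embryo 2 (0.162), and with limma (0.0608).

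In endoderm-like cells from E4.5 to E6.5, 2 members were higher and 1 lower, where 6.08% of 13237 genes were higher and 2.62% lower. Of the 2 higher, Cer1 entered the test only through the later stages. Tdgf1 rose from 8.61, 0, 4.67, 1.17 and 6.70 CPM to 19.5 and 100 CPM (log2 fold change 4.27 ± 0.98, adjusted p = 0.00550), without overlap. These sums weight deep cells more. In E6.5 embryo 2, cell 68 gave 412 of the 592 Tdgf1 reads. In embryo 1, cells 64 and 87 held 5964500 and 6079032 reads but 1 and 13 of the 510 Tdgf1 reads. Cer1 rose from 0 reads in 5 embryos to 4.09 and 8.82 CPM, at least 51.8-fold and 112-fold higher than 3 reads over the E4.5 group (adjusted p = 0.00423). The second of these values came from 1 of 3 cells, and the other 2 held no Cer1 read. Lefty1 fell from 324, 192, 0, 52.4 and 32.5 CPM to 6.49 and 0 CPM (-4.76 ± 1.39, adjusted p = 0.0296), where the E4.5 embryo without reads overlapped the E6.5 pair. Without E6.5 embryo 2, which gives 3 cells, the log2 fold change was 2.50 for Tdgf1 (adjusted p = 0.637) and -3.89 for Lefty1 (adjusted p = 0.347), and the adjusted p of Cer1 was 0.0501. Without E6.5 embryo 1 it was 5.05 for Tdgf1 and -12.80 for Lefty1, the latter set by the prior count since the remaining E6.5 embryo had 0 reads. Lefty1 was also lost without E4.5 embryo 1 (-4.05, adjusted p = 0.10) or 4 (0.0535) or E5.5 (0.108). Of the epiblast list, 9 of 12 genes were read in at least 50% of E6.5 endoderm-like cells against 4 of 12 at E4.5, with summed levels of 150 to 1966 CPM against 287 to 1976 CPM. Median genes per cell were 9442 against 7203. The part of these transcripts, or of detection, in the Tdgf1 value was not tested.

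**Figure D5:**
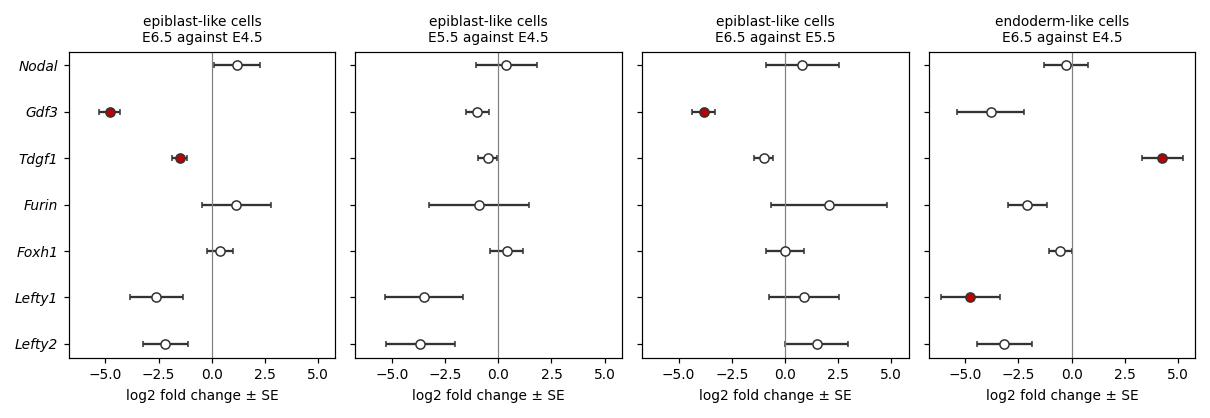
Log2 fold change with its SE (x axis) for 7 members in the 4 stage contrasts, from edgeR on counts summed per embryo. Red points passed an adjusted p of 0.05 and white points did not. Cer1 is left out because its E4.5 counts are 0. Gdf3 passed in the epiblast from E4.5 to E6.5, and its call against E5.5 rests on 1 embryo there and was lost without any of 4 embryos. Tdgf1 lay below 0 in the epiblast and above 0 in the endoderm.

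Among the 31 further pathway genes, 27 were tested in each contrast. In the epiblast from E4.5 to E6.5, 1 was higher, Mixl1, a streak gene induced by Nodal and one of the mesoderm markers used in naming cells (log2 fold change 8.09 ± 1.85, adjusted p = 0.0496), and 0 were lower, beside 0.514% and 1.68% of all genes. No gene of the list passed between E4.5 and E5.5 or between E5.5 and E6.5. In the endoderm 3 were higher and 2 lower at E6.5, beside 6.08% and 2.62% of all genes, among them Otx2 (7.47 ± 0.94, adjusted p = 5.31e-06), Mixl1 (6.30 ± 1.33, adjusted p = 0.00272), Pmepa1 (-3.61 ± 1.13, adjusted p = 0.0442) and Smad2 (-2.65 ± 0.69, adjusted p = 0.0139). The E4.5 level of Mixl1 was 0.08 in the epiblast and 0.17 in the endoderm, below 1 CPM in both. Its fold changes thus start from near the floor, and it entered the tests through later stages. The median over the list was 1.45 in the epiblast and 1.07 in the endoderm, beside 0.08 and -0.08 over all genes.

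Genes with the most similar profile were sought over 17 means of stage, lineage and embryo, among 11634 genes reaching 10 CPM in 1 of them. Tdgf1 ranked with Hsp90aa1 (Spearman's rho 0.95) and Trim24 (0.94), and Gdf3 with Dppa3 and Mkrn1 (both 0.90). Furin ranked with Smcr8 (0.94), Foxh1 with Kansl2 (0.88) and Atp5b (0.84), and Nodal with Coch (0.85) and Gsc (0.84). Lefty2 ranked with Hdx and Abt1 (both 0.82), and Lefty1 with Rnaset2a (0.81) and Acaa1a (0.71), the weakest of the 8. Cer1, above 0 in 6 of the 17 means, ranked with Aadat and Foxa1 (both 0.96). The means share libraries and depth, so these values only order the genes.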

How the data were processed

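Single-cell methylation and transcriptome sequencing was applied to cells of E4.5, E5.5 and E6.5 mouse embryos. The deposited counts are whole reads per Ensembl gene, which the authors made from Smart-seq2 libraries. The submitters' processing notes name Trim Galore, HISAT2 2.1.0, featureCounts and the build GRCm38. No strand setting is given in the sources used here. Of 22084 genes, 264 columns were mapped to samples by title, and no columns were identical. The library stages, embryos and prefixes came from the titles. Same-numbered embryos of different stages are different embryos, so the number pairs nothing. Separate embryos within a stage are the replicates.

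Counts were scaled to CPM and expressed as log2(CPM + 1) with a pseudocount of 1. Cells of each stage were clustered (Ward, 20 principal components of the 2000 most variable genes, 4 clusters, members and pathway genes left out) and named from lists of epiblast, endoderm, trophoblast and mesoderm markers, where at least 3 were raised by 1 log2 and read in at least 50% of cells. A cluster with markers of more than 1 list was divided in 2, a step added after seeing the E6.5 clusters. A cluster led by markers of another list stayed unnamed. The anterior visceral endoderm list was read but named nothing.

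Counts summed per embryo (at least 3 cells of the lineage) were tested with edgeR 4.0.16 (TMM, quasi-likelihood), all stages in 1 fit, with Benjamini-Hochberg adjustment over all genes. The SE is the log2 fold change divided by the square root of F. The alternatives used DESeq2 1.42.0, limma 3.58.1, other filters and clusters, and left out each embryo. The scripts were tested on simulated data. Members, lists and tests were chosen with earlier results of these data known. Named were the 8 members, up to 4 further pathway genes a contrast by size of change among those past the threshold, and 2 genes of most similar profile a member, of which 1 is not reported here. Where a count of a gene was 0, a bound used 3 reads. Exact intervals cover counting error of cells only, since reads carried no molecular identifiers. Doublets were not called.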

Additional observations from a re-analysis of the deposited data

Results flagged for a closer look

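The stage differences of Tdgf1 and Furin had opposite signs in the epiblast and the endoderm. From E4.5 to E6.5 the level of Tdgf1, log2(CPM + 1) averaged over embryos, dropped by 1.54 in epiblast-like cells and was 4.67 higher in endoderm-like cells. The same difference of Furin was 2.03 in epiblast-like cells and -1.77 in endoderm-like cells. On this scale both E6.5 embryos lay beyond all 5 E4.5 embryos in each case. As summed CPM, epiblast Furin overlapped, with 8.93 in E6.5 embryo 1 against 11.2 in E4.5 embryo 2. The stage test used these sums, and the difference between the lineages was not tested. Furin did not pass the stage test in either lineage (adjusted p = 0.796 and 0.168). At E6.5 the lineages held transcripts of each other's marker lists, and the part of these in these values was not tested. Of 14 sets of 5 embryo levels at E4.5, none had a single embryo standing apart by Dixon's test, which by chance would mark about 1 set in 20.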

How the results depend on the processing

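The 3 members without overlap between the E4.5 lineages stayed at 3 under every alternative run, with cells thinned, other clusters, filters and pseudocounts and summed counts, and with each embryo left out, which cannot lower it. Of 86 recomputed counts of members, 66 stayed within 1.5 times the main one. In the epiblast E6.5 against E4.5 the count of 2 went to 1 with RLE normalization, the stricter cell filter, 3 clusters a stage or without cells of 2 lineages (added after seeing the data) and to 4 with limma, and was 1 to 2 with each embryo left out. Gdf3 passed there in 19 of 19 alternatives and Tdgf1 in 7 of 19. E5.5 against E4.5 gave 1 with all kept cells in place of 0, and E6.5 against E5.5 gave 0 with limma in place of 1 and 0 to 1 with each embryo left out. The endoderm count of 3 went to 0 with the stricter cell filter and was 0 to 4 with each embryo left out. Tdgf1 and Cer1 passed in 15 and Lefty1 in 9 of 18 alternatives there. The cause of these shifts was not tested. The embryo number as a replicate block, in a fit without E5.5, gave 3 epiblast and 2 endoderm members. Except for the fits named at the end of this paragraph, these counts stand without the share of all genes called in the same fit. They show only how the count of members moved. Same-numbered embryos did not deviate together (r from -0.02 to 0.01), and share only a number. Over all genes, DESeq2 called 1034 where edgeR called 294 in the epiblast E6.5 against E4.5, limma 2756, no low-count filter 529, all kept cells 1008, and the fits without E6.5 embryo 1 or 2 126 and 103.

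Values that did not pass changed sign as follows. In the epiblast E6.5 against E4.5, all kept cells gave -1.24 for Furin and -0.069 for Foxh1, the replicate block -0.046 for Foxh1, limma 0.26 for Lefty1 and 0.69 for Lefty2, and leaving out embryos -0.14 to 0.80 for Foxh1. In E5.5 against E4.5, Leiden clusters gave -0.0049 for Nodal, all kept cells 0.22 for Gdf3 and 0.998 for Tdgf1, and the stricter filter 0.71 for Furin. In E6.5 against E5.5, all kept cells gave -0.77 for Nodal, -0.39 for Foxh1 and -2.97 for Lefty1, the stricter filter -0.54 for Foxh1, -0.029 for Lefty1 and -0.013 for Lefty2, 6 clusters -0.13 for Foxh1, and leaving out embryos -0.54 to 0.41 for Foxh1 and -1.41 to 1.75 for Lefty1. In the endoderm, limma gave 1.25 for Nodal and 0.32 for Lefty2, Leiden clusters 1.17, 3 clusters 0.28 and undivided clusters 0.28 for Nodal, and leaving out embryos -0.56 to 0.29. Thinning to 50000 reads moved 21 of 56 shares of cells with a read outside their interval. Undivided clusters left no epiblast-like cells at E6.5, so those contrasts were not run, Leiden clusters left no endoderm-like cells at E5.5 and the stricter filter 4, and no fit with the block was possible with E5.5, whose only embryo has a number of its own. The stage tests rest on 2 embryos at E6.5 and 1 at E5.5.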

Other observations

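The 48 cells that no marker list named were left out of the lineage comparisons and the stage tests, and entered the alternative fits on all kept cells. At E5.5 the 15 unnamed cells, with a median of 3039 genes against 5915 in epiblast-like cells, all held Tdgf1 (median 9.21) but held Foxh1 in 4 and Nodal in 1. In 1 of these 15 cells Cer1 was read at 5.65. At E4.5 the 11 unnamed cells held no Nodal or Cer1 read, while 5 held Lefty1 and 6 held Gdf3. At E6.5 the 22 unnamed cells held Tdgf1 in 19, Nodal in 13 and Cer1 in 9.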
